A study of Mus musculus with 6 samples.

Results

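Replication-dependent histone genes encode the H1, H2A, H2B, H3 and H4 proteins that are deposited on newly copied DNA. They were taken here as the genes with an own probe set whose platform annotation gives exactly 1 symbol, and whose symbol begins with Hist1h, Hist2h, Hist3h or Hist4h. This rule found 26 of 22296 genes, measured by 81 probe sets: 6 H1 genes, 8 H2A genes, 9 H2B genes, 1 H3 gene and 2 H4 genes. The platform lists 64 such symbols in all. The other 38 occur only on probe sets that name several histone genes, and 123 probe sets of that shared kind lie outside the rule. No gene of the Hist4 cluster had a probe set of its own.

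The study put mouse bone marrow KLS cells on exon-type expression arrays, 3 from Wild-type and 3 from Dnmt3a +/- animals. KLS cells carry Kit and Sca-1 and lack lineage markers, and the fraction holds stem cells and early progenitors. The Dnmt3a +/- genotype leaves 1 intact copy of the gene for a DNA methyltransferase. The labels give no age, treatment, strain or design of the Dnmt3a allele. Nothing there tells whether a genotype's arrays stem from different mice, and the spread behind the p-values may therefore be partly technical.

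In dividing cells most genes of this kind are switched on together in S phase, when new chromatin needs histones. The rule goes by symbol alone and also takes in the testis genes Hist1h1t, Hist1h2aa and Hist1h2ba. Most of their mRNAs end in a stem-loop bound by Slbp instead of a poly(A) tail, and are degraded when DNA synthesis stops. The genes lie in tight clusters, and many copies of a class encode nearly the same protein with nearly the same coding sequence, so a probe for one copy can also bind transcripts of others. Values of single histone genes are uncertain for that reason.

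Promoters of the class are shown because the members share elements there that the choice of genes did not use. Of the 26 genes, 22 matched a promoter in RefSeq, build GRCm38.p6, and Hist1h2al, Hist2h2be, Hist3h2bb and Hist2h4 did not. The 250 bases upstream of the start were searched on both strands for the octamer ATTTGCAT, the CCAAT box CCAAT, the H1 box AAACACA and the TATA box TATAAA, none of which contains another. CCAAT was present in 20 of 22 members and in 33.8% of 32851 promoters. The octamer was present in 9 members and in 1.60% of all promoters, the H1 box in 8 members and in 6.25%, and TATAAA in 12 members and in 12.4%. The octamer occurred upstream of 5 of 7 H2A genes and 4 of 7 H2B genes and of none of the 6 H1 genes. Head-to-head genes were each counted even where they share a match. Hist1h2ae and Hist1h2bg match the same octamer bases on opposite strands, and so do Hist1h2aa and Hist1h2ba. The 9 octamer members therefore hold fewer than 9 separate sites. The H1 box occurred upstream of 5 of 6 H1 genes. A match describes these letters only, and is no evidence that a factor binds.

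The 3 H1 promoters below contrast a gene without the H1 box (Hist1h1a) with one that has it (Hist1h1e) and the testis H1 gene (Hist1h1t). Each line gives the 150 bases before the start, 5′ to 3′ on the gene's strand, with matches to the searched motifs on either strand in capitals.
Hist1h1a, chr13:23763518-23763667, plus strand: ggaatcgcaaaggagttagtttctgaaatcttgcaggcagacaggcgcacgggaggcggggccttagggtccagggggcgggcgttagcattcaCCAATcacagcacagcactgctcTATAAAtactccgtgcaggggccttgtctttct
Hist1h1e, chr13:23622559-23622708, minus strand: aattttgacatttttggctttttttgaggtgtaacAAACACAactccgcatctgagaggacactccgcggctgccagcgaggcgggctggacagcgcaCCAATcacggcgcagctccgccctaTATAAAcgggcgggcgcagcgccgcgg
Hist1h1t, chr13:23695661-23695810, plus strand: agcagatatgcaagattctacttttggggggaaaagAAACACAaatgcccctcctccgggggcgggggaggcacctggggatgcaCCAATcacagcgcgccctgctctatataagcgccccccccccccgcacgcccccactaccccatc

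Many H2A and H2B genes sit head to head. The printed windows of Hist1h2ae and Hist1h2bg shared 121 bases on opposite strands, and those of the testis pair Hist1h2aa and Hist1h2ba shared 20 bases. Hist2h2bb is shown as the H2B gene with the most probe sets, and Hist1h4k as the only H4 gene with a promoter entry; TATAAA was its only match.
Hist1h2ae, chr13:23571221-23571370, minus strand: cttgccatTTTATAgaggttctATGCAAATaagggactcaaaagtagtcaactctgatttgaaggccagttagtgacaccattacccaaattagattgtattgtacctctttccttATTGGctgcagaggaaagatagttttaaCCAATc
Hist1h2bg, chr13:23571250-23571399, plus strand: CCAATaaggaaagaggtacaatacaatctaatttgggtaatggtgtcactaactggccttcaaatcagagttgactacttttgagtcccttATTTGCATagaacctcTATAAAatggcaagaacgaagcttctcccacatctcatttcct
Hist1h2aa, chr13:23934287-23934436, plus strand: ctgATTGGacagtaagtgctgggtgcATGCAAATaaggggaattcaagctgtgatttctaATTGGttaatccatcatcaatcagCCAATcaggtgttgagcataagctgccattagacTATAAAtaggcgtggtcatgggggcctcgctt
Hist1h2ba, chr13:23934157-23934306, minus strand: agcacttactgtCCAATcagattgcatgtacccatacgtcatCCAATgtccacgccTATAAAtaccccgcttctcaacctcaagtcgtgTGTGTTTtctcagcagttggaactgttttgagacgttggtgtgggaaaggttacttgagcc
Hist2h2bb, chr3:96269550-96269699, plus strand: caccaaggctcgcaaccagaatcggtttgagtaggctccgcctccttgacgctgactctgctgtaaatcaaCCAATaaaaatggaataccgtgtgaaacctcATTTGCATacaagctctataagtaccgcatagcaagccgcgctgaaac
Hist1h4k, chr13:21750554-21750703, minus strand: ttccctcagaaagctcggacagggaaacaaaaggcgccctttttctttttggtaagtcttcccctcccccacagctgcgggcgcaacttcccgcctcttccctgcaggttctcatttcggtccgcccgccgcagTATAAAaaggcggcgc

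Genotype differences of genes with and without an element overlapped. The 9 octamer genes had a median difference of -0.12 (log2, Dnmt3a +/- minus Wild-type) and ranged from -0.39 to 0.30. Among them are the head-to-head pairs that share an octamer site. The 13 genes without the octamer had a median of -0.06 and ranged from -0.64 to 0.37. The head-to-head pair Hist1h2ae and Hist1h2bg differed by -0.18 and -0.12, while Hist1h2aa and Hist1h2ba differed by 0.30 and -0.39.

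The targeted gene was read first. Dnmt3a was at log2 8.41, 8.63 and 8.41 on the Wild-type arrays and at 8.27, 8.15 and 8.12 on the Dnmt3a +/- arrays. All 3 Dnmt3a +/- values lay below the Wild-type values, with a difference of -0.31 (SE 0.12, limma adjusted p = 0.670), which did not pass the test. The sort markers Kit and Ly6a had high signal in both genotypes, with differences of -0.11 (SE 0.11) and -0.02 (SE 0.14). Kit read 10.74, 10.80 and 10.68 against 10.65, 10.63 and 10.59, so its genotypes did not overlap either. Across the table no gene passed an adjusted p of 0.05 by limma, while 1636 genes had an unadjusted p below 0.05. The number of arrays, 3 a genotype, limits the precision of every value below.

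No replication-dependent histone gene passed the test between genotypes. Of the 26 genes, 8 had a higher and 18 a lower mean in Dnmt3a +/- cells, and the median difference was -0.10 against -0.02 over all genes, 54.2% of which had a lower mean. When 1 array was left out the histone median ran from -0.20 (without Wild-type replicate 2) to -0.06 (without Wild-type replicate 1). Limma adjusted p-values of the members ran from 0.670 to 0.970, and 3 of 26 had an unadjusted p below 0.05 (Hist1h1t, Hist1h2ba and Hist3h2bb), against 7.34% of all genes. The 95% confidence interval of the difference included 0 for 23 genes. All arrays are bulk samples, in which fewer cells of a type and less RNA per cell cannot be told apart.

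**Figure D1:**
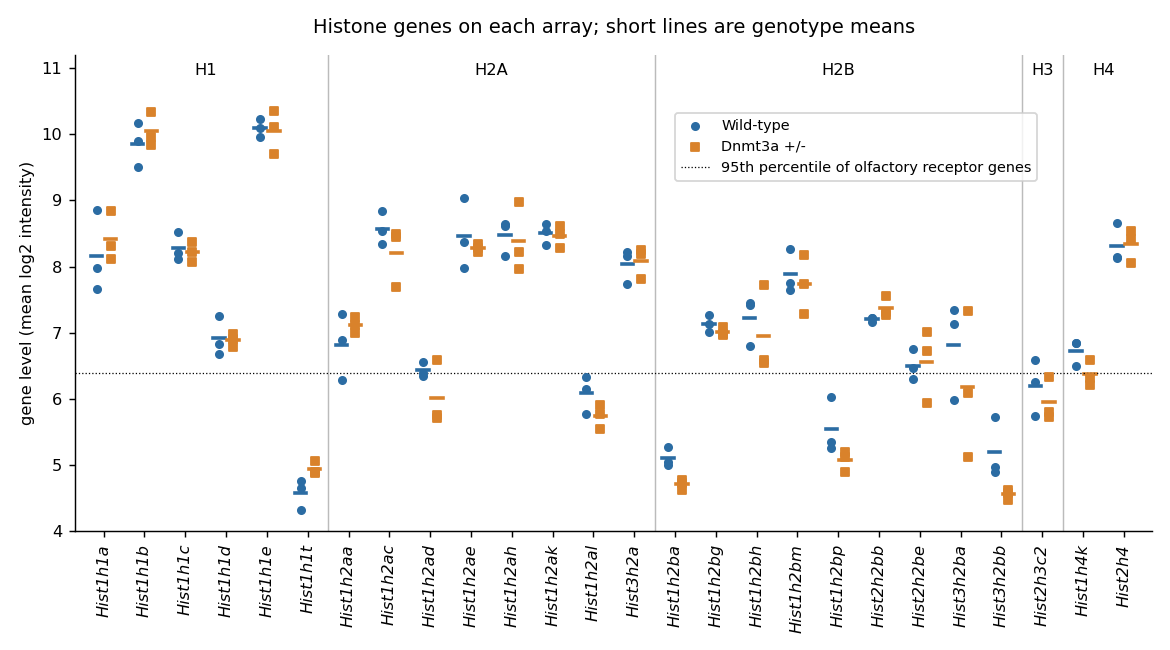
Mean log2 intensity of each histone gene on each array, grouped by class, with circles for Wild-type, squares for Dnmt3a +/- and short lines for genotype means; heights of different genes are not comparable because their probes differ. The genotypes overlap for most genes, and 19 of 26 gene means lie above the dotted line, the 95th percentile of olfactory receptor genes.

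Genotype groups did not overlap for 5 genes. Hist1h1t and Hist2h2bb were higher on all 3 Dnmt3a +/- arrays, 2 of 26 genes beside 6.24% of all genes. Hist1h2ba, Hist1h2bp and Hist3h2bb were lower on all 3, 3 of 26 genes beside 8.97% of all genes. These shares are near the background. The counts were smaller with probe sets at or below the median level left out. Then 1 of 25 genes was higher and 0 were lower, beside 6.72% and 9.03% of all genes. With 1 array left out separation is easier for any gene, and the counts cannot fall. Without Wild-type replicate 3 the higher count was 4 of 26, beside 9.56% of all genes. Without Wild-type replicate 1 or 2, or Dnmt3a +/- replicate 2 or 3, the lower count was 5 of 26, beside 17.1%, 13.1%, 12.6% and 15.9% of all genes.

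To show which members had signal above that of genes silent in this tissue, levels were set beside 1049 olfactory receptor genes, which are mostly restricted to the nasal epithelium. Their median gene level was log2 4.30 and their 95th percentile was 6.38, and their median genotype difference was 0.09. Means of 19 histone genes lay above that percentile. The 7 at or below it were Hist1h1t, Hist1h2ad, Hist1h2al, Hist1h2ba, Hist1h2bp, Hist3h2bb and Hist2h3c2, and they include 4 of the 5 genes whose genotypes did not overlap.

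The linker histones H1 bind the DNA between nucleosomes and compact the chromatin fibre. Hist1h1a, which encodes H1.1, was at 7.97, 7.67 and 8.85 on the Wild-type arrays and at 8.32, 8.11 and 8.84 on the Dnmt3a +/- arrays. The groups overlapped, and replicate 3 of each genotype was the highest of its group. The difference was 0.26 (SE 0.31). Hist1h1b, which encodes H1.5, was at 9.89, 9.51 and 10.18 in Wild-type cells and at 9.96, 9.84 and 10.34 in Dnmt3a +/- cells, a difference of 0.19 (SE 0.20). Here too the genotypes overlapped, and Wild-type replicate 2 was the lowest array.

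Hist1h1c, the H1.2 gene, read 8.52, 8.12 and 8.20 in Wild-type cells against 8.07, 8.37 and 8.21 in Dnmt3a +/- cells. Hist1h1d, the H1.3 gene, read 7.25, 6.68 and 6.83 against 6.78, 6.90 and 6.99. Hist1h1e, the H1.4 gene, read 10.10, 9.96 and 10.23 against 10.10, 9.70 and 10.35. The values of these 3 genes were intermingled between genotypes, with differences of -0.06 (SE 0.15), -0.03 (SE 0.17) and -0.05 (SE 0.18). Hist1h1t, the testis H1t gene, read 4.76, 4.33 and 4.66 against 4.89, 4.88 and 5.06, so every Dnmt3a +/- array was higher. Its difference was 0.37 (SE 0.15), the exact permutation p was 0.1 (two-sided, the smallest that 3 against 3 arrays can give), and its mean lay at the 13.8 percentile of all genes. The class as a whole had 3 genes higher and 3 lower, with a median of 0.08. That median was -0.02 with dim probe sets left out, -0.05 without Wild-type replicate 2 and -0.01 without Dnmt3a +/- replicate 3, and reached 0.21 without Dnmt3a +/- replicate 2.

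H2A and H2B form the dimers on the flanks of the nucleosome core. In the H2A class 2 of 8 genes had a higher and 6 a lower Dnmt3a +/- mean, with a median difference of -0.13. That median was -0.001 with dim probe sets left out. It was 0.01 without Wild-type replicate 3, -0.08 without Dnmt3a +/- replicate 1 and -0.23 without Wild-type replicate 2. The lowest difference was that of Hist1h2ad, at 6.39, 6.35 and 6.56 in Wild-type cells against 5.75, 5.71 and 6.59 in Dnmt3a +/- cells. Dnmt3a +/- replicate 3 lay above all Wild-type arrays and the others lay below them, giving -0.41 (SE 0.23). Hist1h2ac read 8.84, 8.34 and 8.53 against 7.69, 8.49 and 8.45, so its -0.36 (SE 0.24) rested mainly on Dnmt3a +/- replicate 1.

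Hist1h2ak was named for its mean signal, which averages probe sets from log2 3.42 to 13.5 and gives no rank of expression among genes. It read 8.33, 8.54 and 8.64 in Wild-type cells against 8.49, 8.27 and 8.61 in Dnmt3a +/- cells. The values were intermingled, and the difference was -0.04 (SE 0.14). Hist1h2aa, a testis H2A gene read by 1 probe set, was at 6.89, 6.28 and 7.29 against 7.12, 6.99 and 7.24, and differed by 0.30 (SE 0.24). Its low Wild-type mean came from replicate 2. Hist3h2a, the H2A gene of the small Hist3 cluster, read 8.22, 7.74 and 8.15 against 7.82, 8.19 and 8.26, a difference of 0.05 (SE 0.18). The remaining H2A genes (Hist1h2ae, Hist1h2ah and Hist1h2al, the last named H2af-ps2 in RefSeq) differed by -0.18, -0.08 and -0.34, and none had separated genotypes.

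In the H2B class 2 of 9 genes had a higher and 7 a lower Dnmt3a +/- mean, with a median of -0.27. That median was -0.08 with dim probe sets left out, -0.17 without Wild-type replicate 1, -0.45 without Wild-type replicate 2, -0.16 without Dnmt3a +/- replicate 1 and -0.11 without Dnmt3a +/- replicate 2. Hist3h2bb, named H2bu1-ps in RefSeq, was at 4.89, 4.98 and 5.72 on the Wild-type arrays and 4.47, 4.58 and 4.62 on the Dnmt3a +/- arrays. The genotypes did not overlap at this dim level, Wild-type replicate 3 stood well above the other 5 arrays, and the difference was -0.64 (SE 0.22, exact permutation p = 0.1, two-sided). Hist3h2ba, its neighbour in the cluster, had the same size of difference with a far wider spread, -0.64 (SE 0.56). It read 7.35, 5.99 and 7.13 against 6.09, 5.12 and 7.33, and the groups overlapped. Leaving out 1 array moved its difference from -1.22 to -0.11.

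Hist1h2ba, the testis H2B gene, rested on 1 probe set at 5.04, 4.99 and 5.27 in Wild-type cells against 4.78, 4.63 and 4.73 in Dnmt3a +/- cells. All Dnmt3a +/- arrays were lower, and the difference of -0.39 (SE 0.13) had the smallest unadjusted p of any member in limma. Hist1h2bp, named after its values were seen, read 5.26, 5.36 and 6.03 against 5.12, 5.20 and 4.90, and differed by -0.47 (SE 0.21). The separation was narrow, with the highest Dnmt3a +/- array at 5.20 and the lowest Wild-type array at 5.26.

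Hist2h2bb, the member with the most probe sets (12), was at 7.22, 7.16 and 7.23 in Wild-type cells against 7.27, 7.56 and 7.31 in Dnmt3a +/- cells. Every Dnmt3a +/- array was higher, by a difference of 0.18 (SE 0.13) to which replicate 2 contributed most. Hist2h2be, an H2B variant known from olfactory neurons, read 6.46, 6.30 and 6.75 against 5.94, 6.73 and 7.01 and differed by 0.06 (SE 0.27). Hist1h2bm, named by the same rule, read 8.27, 7.64 and 7.75 against 7.29, 7.74 and 8.18, a difference of -0.15 (SE 0.25). Both genes overlapped between genotypes. Hist1h2bg and Hist1h2bh differed by -0.12 (SE 0.12) and -0.27 (SE 0.33).

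H3 and H4 form the tetramer at the centre of the nucleosome, and they are the classes least well covered by probe sets of their own. The only H3 member, Hist2h3c2, read 5.75, 6.26 and 6.58 in Wild-type cells against 5.80, 6.33 and 5.72 in Dnmt3a +/- cells, with a difference of -0.25 (SE 0.24). Hist1h4k was at 6.50, 6.84 and 6.85 against 6.21, 6.58 and 6.32, a difference of -0.36 (SE 0.16). Dnmt3a +/- replicate 2 lay above Wild-type replicate 1, so its groups overlapped. Hist2h4 read 8.14, 8.13 and 8.66 against 8.42, 8.06 and 8.54 and differed by 0.03 (SE 0.19).

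**Figure D2:**
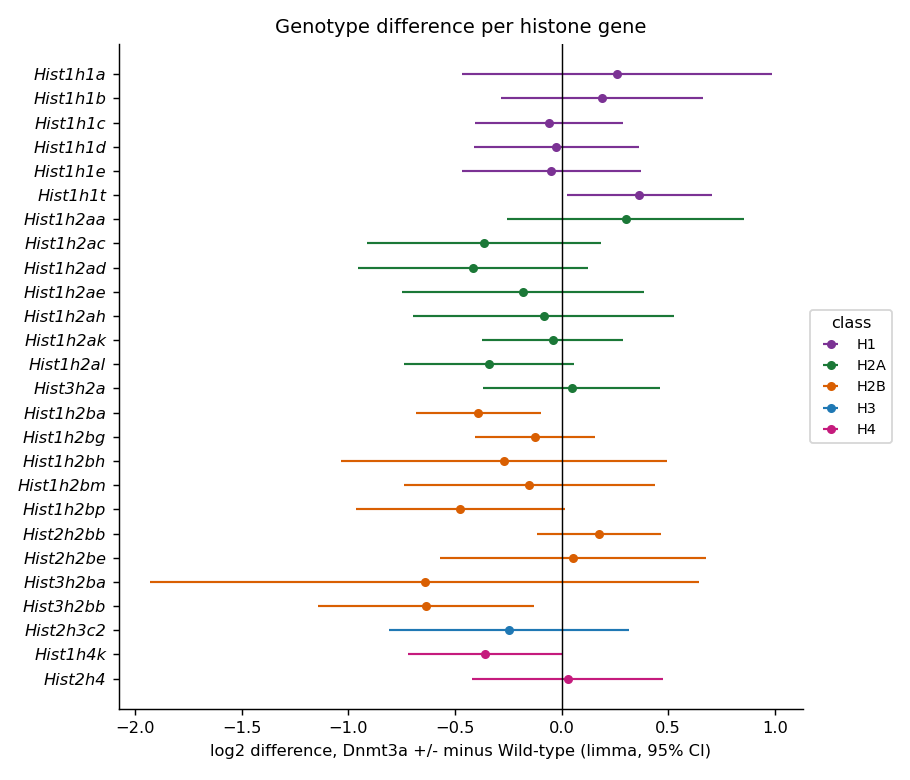
Log2 difference of each histone gene, Dnmt3a +/- minus Wild-type (points), with the 95% confidence interval from limma (lines), coloured by class. The intervals of 23 of 26 genes include 0; those of Hist1h1t, Hist1h2ba and Hist3h2bb do not.

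By cluster, the 19 genes of Hist1 (chromosome 13 for those with a promoter entry) had a median difference of -0.12, the 4 genes of Hist2 of 0.04 and the 3 genes of Hist3 of -0.64. Over the 13 alternatives these medians ran from -0.23 to -0.04, from -0.10 to 0.18 and from -0.75 to 0.01. The last value, for Hist3, came with dim probe sets left out. It was the difference of Hist3h2bb, while Hist3h2ba then differed by -1.04 and Hist3h2a by 0.05. Class and cluster medians rest on few genes and were given no test.

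The single probe sets of a gene often pointed in different directions. Of the 22 genes with more than 1 probe set, 18 had probe sets with differences of both signs. Hist1h2ae showed the widest span of level, from a probe set at log2 3.24 to one at 13.5. Its differences were -0.40 and 0.04. Hist1h4k spanned 3.76 to 11.4, with differences from -0.88 to 0.14. A gene mean therefore combined probe sets near the floor of the array with some near its top, where the highest probe-set mean was 14.3. With probe sets at or below the median level left out, the sign turned for 6 genes: the difference was then -0.03 for Hist1h1a, 0.04 for Hist1h2ae, 0.05 for Hist1h2ah, 0.12 for Hist1h2bh, -0.06 for Hist2h2be and 0.01 for Hist3h2bb.

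Medians of own histone probe sets of high and low signal lay on different sides of 0. Over the 81 own probe sets 4 had higher and 3 lower Dnmt3a +/- values without overlap, beside 6.27% and 5.3% of all probe sets. A mean above log2 9 over all 6 arrays, a threshold set after the values were seen, was reached by 17 of the 81 own probe sets. Of these, 13 had a higher and 4 a lower Dnmt3a +/- mean, with a median of 0.12. The 25 own probe sets at or below the median level of all probe sets (5.89) had 7 higher and 18 lower means, with a median of -0.24. Genotypes did not overlap for 2 higher and 2 lower of these 25, beside 6.23% and 4.51% of all probe sets at that level. The 39 own probe sets between 5.89 and log2 9 had 18 higher and 21 lower means, with a median of -0.03. Over all probe sets the order was the other way, with medians of -0.05 above log2 9 and 0.05 at or below 5.89.

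**Figure D3:**
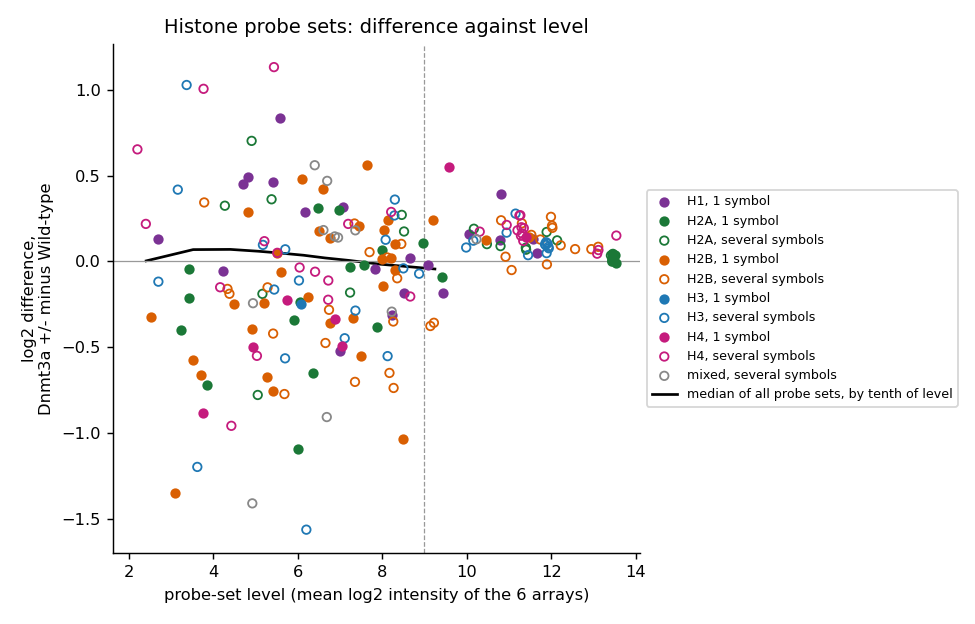
Genotype difference of each histone probe set (vertical axis, log2) against its mean log2 intensity (horizontal axis), filled for probe sets with 1 symbol and open for those naming several histone genes; the dashed line is at 9 and the black line is the median of all probe sets along 10 bins of level. Right of the dashed line 62 of 71 points lie above 0, and differences scatter widely on both sides to its left.

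The shared probe sets, which the rule did not use, add the H3 and H4 copies that have none of their own. Of 54 shared probe sets above log2 9, 49 had a higher Dnmt3a +/- mean, with a median of 0.10. This included all 12 H3 probe sets (median 0.10) and all 13 H4 probe sets (median 0.17), 11 of 12 H2A probe sets (median 0.07) and 12 of 16 H2B probe sets (median 0.09). Probe sets of 1 class name overlapping gene lists and are not independent readings. Together 62 of 71 bright histone probe sets had a higher mean, with a median of 0.10, while 42.0% of all probe sets above log2 9 did. Not 1 of the 71 had genotypes that did not overlap, beside 5.63% higher and 7.86% lower among all probe sets above log2 9, and 0 passed limma's adjusted p of 0.05 over all probe sets, with 0 at an unadjusted p below 0.05 beside 2.28% of all probe sets above log2 9.

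That count rested mainly on Wild-type replicate 2 and, to a lesser degree, on Dnmt3a +/- replicate 3. Median deviations of the 71 probe sets from the Wild-type mean were 0.07, -0.24 and 0.20 on the Wild-type arrays and -0.04, 0.13 and 0.26 on the Dnmt3a +/- arrays. The spread within a genotype exceeded the difference between genotypes. Wild-type replicate 2 was the lowest Wild-type array in 64 of 71 bright histone probe sets (90.1%), against 31.6% of all probe sets above log2 9. Without it 31 of 71 probe sets had a higher Dnmt3a +/- mean and the median was -0.02. Dnmt3a +/- replicate 3 was the highest array of its genotype in 56 of 71 (78.9%), against 36.5% of all probe sets above log2 9. Without it 46 of 71 had a higher mean and the median was 0.04. At gene level Wild-type replicate 2 was the lowest Wild-type array in 19 of 26 histone genes (73.1%), against 32.5% of all genes.

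Other genes of S phase ordered some of the arrays differently. The 44 genes for DNA synthesis, such as replication licensing and polymerase subunits, had medians of -0.32, 0.21 and 0.11 on the Wild-type arrays and 0.01, -0.30 and 0.13 on the Dnmt3a +/- arrays. Wild-type replicate 2 was the highest Wild-type array in 27 of the 44 genes and the lowest in 4. The lowest was replicate 1, in 38 of 44. Dnmt3a +/- replicate 3 was the highest array of its genotype in 32 of the 44 genes (72.7%), against 34.8% of all genes. It was also the highest of its genotype in most bright histone probe sets. Wild-type replicate 2, with the lowest bright histone median of its genotype, thus had the highest Wild-type median for DNA synthesis genes. Dnmt3a +/- replicate 1, lowest of its genotype for bright histone probe sets (-0.04), was the middle array for DNA synthesis (0.01). Dnmt3a +/- replicate 2, low for DNA synthesis, had a bright histone median of 0.13.

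Mitotic genes, at -0.41, 0.19 and 0.22 in Wild-type cells against -0.09, -0.44 and 0.06 in Dnmt3a +/- cells, ordered the arrays much as the DNA synthesis genes did. The summed linear intensity of 11 measured genes listed as neutrophil markers was also lowest on Wild-type replicate 2. It was 11274 there, within a Wild-type range of 11274 to 16556 and beside a Dnmt3a +/- range of 14155 to 19794. The brightest markers weigh most in this sum, led by Mpo at a mean of log2 12.4. Whether their signal came from neutrophils or from KLS cells was not tested. Taken singly, Mpo, Prtn3, Fcnb and Mmp8 were lowest on another array, and the other markers on Wild-type replicate 2. Of these 11 genes, 8 had a higher Dnmt3a +/- mean, with a median of 0.25, and none passed the test. Without Dnmt3a +/- replicate 1 that tally was 4 (median -0.04), and without Wild-type replicate 2 it was 6. Their 2 smallest p-values were those of Retnlg (0.85, SE 0.20) and Mmp8 (0.56, SE 0.19). The part of other cells in the histone values was not tested.

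**Figure D4:**
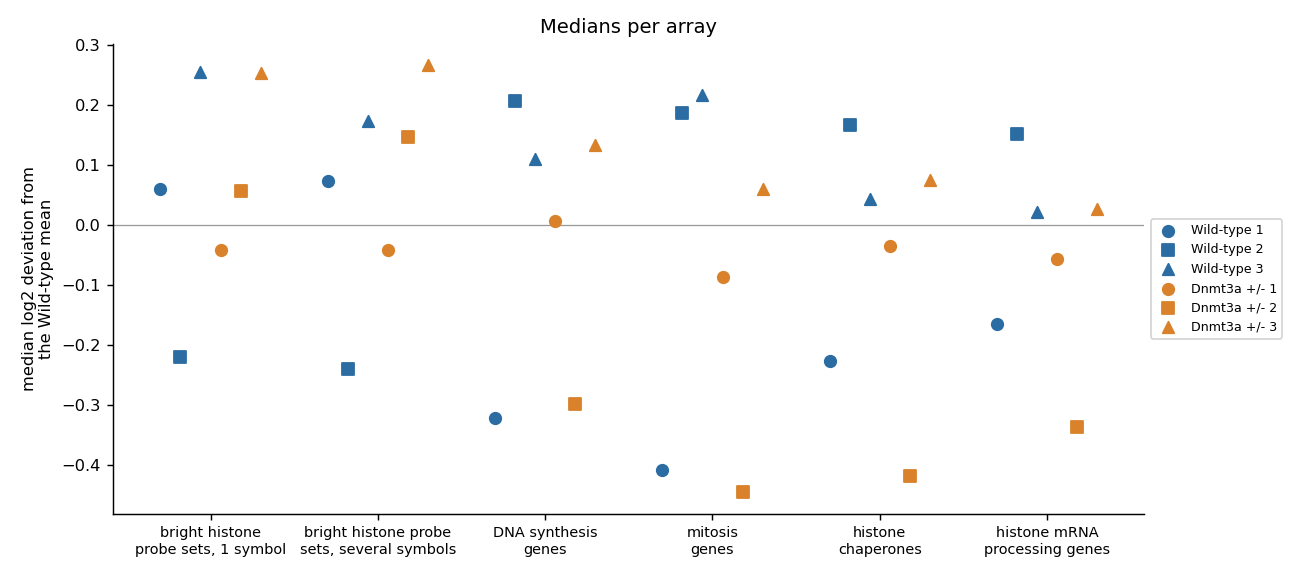
Median log2 deviation from the Wild-type mean of each gene or probe set, for bright histone probe sets and 4 related gene lists, with 1 symbol per array (colour for genotype, shape for replicate). Wild-type replicate 2 is lowest of all arrays for both kinds of histone probe set and highest of the Wild-type arrays for DNA synthesis, chaperone and histone mRNA processing genes.

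The machinery around the histone genes showed small differences with none past the adjusted p. The 19 measured genes for histone mRNA synthesis and processing had 3 higher and 16 lower means, with a median of -0.14. Medians were -0.16, 0.15 and 0.02 on the Wild-type arrays and -0.06, -0.34 and 0.03 on the Dnmt3a +/- arrays, and Dnmt3a +/- replicate 2 was the lowest of its genotype in 17 of 19 genes. Without it 8 genes were higher and 11 lower, with a median of -0.02. Mizf, now Hinfp, an activator of H4 transcription, was at 7.86, 7.70 and 7.85 in Wild-type cells against 7.78, 7.03 and 7.46 in Dnmt3a +/- cells. Its genotypes overlapped, with -0.38 (SE 0.19). Cpsf2, a subunit of the complex that cleaves pre-mRNA 3′ ends, differed by -0.35 (SE 0.18). Slbp, which binds the histone stem-loop, and Npat, the coactivator at histone loci, were named after their values were seen and differed by 0.10 (SE 0.17) and -0.24 (SE 0.23).

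Some histone chaperones carry new histones to the replication fork, and the list was not limited to these. Of 18 measured, 3 had a higher and 15 a lower mean, with a median of -0.12. Asf1a, the chaperone of H3 and H4 dimers, read 7.56, 8.05 and 7.92 against 7.47, 7.03 and 7.57, where only 1 Dnmt3a +/- array reached the lowest Wild-type value, and differed by -0.49 (SE 0.19). Nap1l4, a chaperone of H2A and H2B, differed by -0.35 (SE 0.17). Chaperone medians by array were -0.23, 0.17 and 0.04 in Wild-type cells against -0.03, -0.42 and 0.07 in Dnmt3a +/- cells, so 1 array of each genotype lay well below the others. Without Dnmt3a +/- replicate 2 the chaperones had 12 higher and 6 lower means, with a median of 0.06. The median was -0.26 without Wild-type replicate 1.

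Many replacement histones are made throughout the cell cycle from polyadenylated mRNAs, and the list also holds other variant histones. Of 13 measured, 4 had a higher and 9 a lower mean, with a median of -0.10, which was -0.06 without Dnmt3a +/- replicate 2 and -0.16 without replicate 3. Genotypes did not overlap for 3 of them, all lower, beside 8.97% of all genes. H2afy, the gene of the large variant macroH2A, read 9.85, 10.11 and 10.05 in Wild-type cells against 9.69, 9.54 and 9.78 in Dnmt3a +/- cells. It had a high signal with separated genotypes and differed by -0.33 (SE 0.13, limma adjusted p = 0.670). Hils1, a spermatid linker histone at a dim level, differed by -0.37 (SE 0.14). H3f3b, which encodes H3.3 and was the last of these, differed by -0.10.

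The DNA synthesis list had 16 higher and 28 lower means, with a median of -0.06, and its 2 smallest p-values were those of Cdk2 (-0.31, SE 0.17), the S-phase kinase that phosphorylates Npat, and Rrm2 (0.55, SE 0.39), a ribonucleotide reductase subunit. The mitosis list had 3 higher and 16 lower means of 19, with a median of -0.18, led by Kif23 (-0.33, SE 0.20) and Cdc20 (-0.38, SE 0.29). In both lists Wild-type replicate 1 and Dnmt3a +/- replicate 2 had the lowest medians of their genotypes, and the medians of the genotypes overlapped. Without Dnmt3a +/- replicate 2 the DNA synthesis list had 28 higher and 16 lower means (median 0.10) and the mitosis list 9 and 10. Without Wild-type replicate 1 the tallies were 6 and 38 (median -0.21) and 0 and 19 (median -0.39). Leaving out a single array thus turned the DNA synthesis tally.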

How the data were processed

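Arrays were grouped by the genotype in the labels. The authors deposited normalized intensity values for 1256831 probe sets; per the submitters' processing notes they used RMA in Partek, with versions not given in the sources used here. The lowest value was 1.84 and the highest 22239, and array medians lay between 59.8 and 61.6, which is a linear scale; log2 was applied. Quantile steps in RMA hide a change shared by most genes. Of the probe sets, 318760 (25.4%) had 1 symbol, 6684 several and 931387 none listed. A gene was the mean log2 of its probe sets, with no level filter. Genotypes were compared with limma 3.58.1 (lmFit, eBayes; R 4.3.3) over 22296 genes and over all probe sets, with Benjamini-Hochberg adjustment, after the fit was tested on simulated data. Exact permutation tests were two-sided.

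Members and lists were chosen with earlier results of these data known. Named were, in each class, the 2 highest and 2 lowest differences and the highest mean; every H1 gene; the testis and Hist3 genes; in each related list the 2 smallest p-values; Dnmt3a, Kit and Ly6a. Symbols are the platform's and can be old. Of the erythroid, B cell, T and NK cell, and monocyte marker lists, the median differences were -0.02, 0.07, 0.02 and 0.04, with no gene past an adjusted p of 0.05 by limma; the 2 smallest p-values were those of Ermap (-0.52) and Klf1 (0.12), Cd79a (0.71) and Cd22 (0.52), Klrd1 (-0.95) and Cd3e (0.21), and Csf1r (-0.86) and Cd163 (-0.44). Of the 8 monocyte markers, 5 had a higher and 3 a lower Dnmt3a +/- mean. All 7 KLS markers had a lower Dnmt3a +/- mean (median -0.19), with the smallest p-values for Flt3 (-0.32) and Cd34 (-0.23). Alternatives were a filter on dim probe sets, the median of probe sets, cyclic loess, a second quantile normalization, array weights, trend and robust variance, a replicate block and leaving out each array; those on bright probe sets, clusters, list tallies and all-gene non-overlap were chosen after seeing the data.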

Additional observations from a re-analysis of the deposited data

How the results depend on the processing

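No histone gene passed an adjusted p of 0.05 in limma under any of the 13 alternatives. The median over histone genes was negative in each, from -0.20 with the median of probe sets to -0.04 with dim probe sets left out. With dim probe sets left out, 1 of 25 histone genes was higher and 0 were lower without overlap, against 2 and 3 of 26. Over all genes the shares were then 6.72% and 9.03%. Hist1h2ba had no probe set left, and the fewer probe sets account for its loss. Leaving out 1 array, which makes separation easier, gave 2 to 4 higher and 4 to 5 lower of 26, beside 9.36% to 13.6% higher and 12.6% to 17.1% lower among all genes. Bright probe sets with a higher Dnmt3a +/- mean numbered 31 to 66 when 1 array was left out, lowest without Wild-type replicate 2, and 66 after cyclic loess. The sign of Hist1h1a, Hist1h2ae, Hist1h2ah, Hist1h2bh, Hist2h2be and Hist3h2bb turned when dim probe sets were left out. The cause of these shifts was not tested.

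The labels number replicates 1 to 3 in both genotypes. Deviations of same-numbered arrays from their genotype means had correlations of -0.05, -0.07 and 0.09. From 3 arrays a genotype, these values cannot decide whether same-numbered arrays were handled as pairs. With the replicate block 0 histone genes passed and 4 had an unadjusted p below 0.05, against 3 without it; over all genes these were 1417 and 1636. Over all genes, 2 passed with array weights, 1 with trend and robust variance and 1 without Dnmt3a +/- replicate 2, none of them a histone gene. Low signal, at or below the 95th percentile of olfactory receptor genes, limits the 7 dimmest histone genes.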
